A study of Mus musculus with 2 samples.

Results

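The cells described here are the vascular smooth muscle cells (VSMCs) with the highest combined level of Ccn5, Masp1, Lurap1l, Lgalsl and Serpinb9. Each cell was scored by the sum of the natural log of 1 plus the transcripts per 10000 of these 5 genes, and the highest 1.5% of cells were kept, which gave 195 members of 13045 cells. The remaining 12850 cells were the comparison. The 5 genes therefore chose the members, and their own levels in the members are a description of that choice. The rule asked how contractile and interferon genes compare between members and the rest.

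The study examined how aging alters the mechanosensing of aortic VSMCs, and profiled primary cultures from C57BL/6 mice by droplet single-cell RNA sequencing. Of the 4 cultures, one came from young mice aged 12 weeks and one from old mice aged 58 to 78 weeks. Another held young VSMCs exposed to 100 nM Angiotensin II over 48 h, and the fourth held old VSMCs that had received siRNA against Piezo1, at 20 nM per the labels, also over 48 h. The sources used here differ on this siRNA concentration. All cells were commercial primary cells. They were marked with antibodies that carry a DNA tag, mixed, and sequenced as 1 library, so no replicate cultures can be compared and no test between groups was made. The deposited counts are unique molecular identifiers (UMIs), each standing for 1 captured RNA molecule. The cells held 115033686 gene UMIs, with a median of 7915 per cell. Levels are given in CPM, which is the UMIs of a gene summed over a set of cells, divided by all UMIs of that set and scaled to 1000000. Intervals in parentheses are exact 95% intervals that cover counting error only.

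In the artery wall, VSMCs contract through smooth muscle actin and myosin, and in culture they move toward dividing and matrix-making states with fewer contractile transcripts. Ccn5, also called WISP2, is a secreted matricellular protein of the CCN family that lacks the C-terminal domain of its relatives and is known to restrain the growth and migration of smooth muscle cells. Masp1 is a serine protease of the lectin pathway of complement. Lgalsl encodes a galectin-related protein, and Serpinb9 encodes an intracellular inhibitor of the protease granzyme B. Lurap1l encodes a leucine-rich adaptor-like protein.

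In GENCODE vM21 (GRCm38), Ccn5 lies at chr2:163820861-163833146, Masp1 at chr16:23449417-23520815, Lurap1l at chr4:80910646-80955628, Lgalsl at chr11:20823576-20831056 and Serpinb9 at chr13:33003250-33017957, all as protein-coding genes. RefSeq promoter windows (GRCm38.p6) were matched for Lurap1l, Lgalsl and Serpinb9. The 250 bases before the start were searched on both strands for the CArG box, the site of serum response factor that many contractile genes carry, and for the core of the interferon-stimulated response element (ISRE), GAAANNGAAA. The CArG box was found in 1.47% of all 32851 promoters and the ISRE core in 2.98%. Lurap1l and Serpinb9 are shown because they held a match, with the matched letters in capitals and the run ended at the first annotated exon. The Lurap1l window (chr4:80910436-80910645, plus strand) held a CArG box 178 bases before the start, followed by an ISRE core at 141. The Serpinb9 window (chr13:33004291-33004540, plus strand) lies inside the GENCODE span of the gene but outside its annotated exons, and held an ISRE core 46 bases before the start.
Lurap1l: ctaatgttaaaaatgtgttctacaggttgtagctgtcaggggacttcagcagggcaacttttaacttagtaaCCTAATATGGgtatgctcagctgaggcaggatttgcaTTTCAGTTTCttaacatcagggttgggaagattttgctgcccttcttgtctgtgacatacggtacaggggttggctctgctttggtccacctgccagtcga
Serpinb9: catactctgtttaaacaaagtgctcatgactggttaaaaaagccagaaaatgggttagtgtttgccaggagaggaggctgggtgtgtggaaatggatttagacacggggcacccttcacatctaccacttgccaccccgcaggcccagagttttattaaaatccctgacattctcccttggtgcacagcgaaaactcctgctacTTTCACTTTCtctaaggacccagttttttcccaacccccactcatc
The Lgalsl window held neither motif.

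The 5 genes are sparse, and few members carried all of them. Only 9 members had a UMI of every marker, while 57 had 4, 100 had 3 and 29 had 2. Ccn5 was found in 84.1% of members against 8.95% of other cells. Serpinb9 was found in 74.9% against 16.1%. Lurap1l was found in 58.5% against 11.0%, Lgalsl in 54.4% against 13.7%, and Masp1 in 51.8% against 14.6%. Ccn5 was the largest term of the score in 98 members and made up 29.7% of the summed score, so the members were foremost Ccn5-positive cells, whereas Masp1 led in 26 members, Lurap1l in 21, Lgalsl in 14 and Serpinb9 in 36. Ccn5 and Serpinb9 were the pair most often seen together (118 of 195 members), and Masp1 and Lgalsl the least (51). The score ran from 3.47 to 6.21 in members, with a median of 4.0, while 54.1% of other cells scored 0. The edge of the set was not a gap. The last cell inside (score 3.47234) carried 1 UMI each of Ccn5, Lurap1l and Lgalsl and 2 of Serpinb9, and the first cell outside (3.47134) carried 2 of Ccn5 and 1 each of Lurap1l and Serpinb9.

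Members lay mostly in the culture with tag 1. Tags were assigned from the hashtag UMIs, and the labels do not pair a tag with a culture, so cultures are given by tag number. The schematic of the study numbers the cultures 1 to 4 as young, old, young with Angiotensin II and old with Piezo1 siRNA, without saying that these are tag numbers. Tag 1 held 166 members among 3117 cells (5.33%, 4.56 to 6.17), which is 85.1% of all members, while it held 23.9% of all cells. Tag 2 held 1 of 573, tag 3 held 4 of 1468, and tag 4 held 0 of 1512. A count of 0 allows a share of up to 0.198% there when set at 3 counts, and 0.244% by the two-sided exact interval that the plot of shares by tag draws. A further 12 members were among the 1068 cells with more than 1 tag, and in all 12 of them tag 1 had the most hashtag UMIs. The last 12 were among the 5307 cells with no tag above background, of which 1 had most hashtag UMIs from tag 1.

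Ccn5 showed this most. Over all cells of a tag, Ccn5 was at 72.7 CPM in tag 1, 2.46 in tag 2, 5.90 in tag 3, 1.45 in tag 4 and 2.53 in cells without a tag. Free RNA, read from barcodes with at most 100 UMIs, held Ccn5 at 15.3 CPM, and its level outside tag 1 was below this. In tag 3, the highest of these, 4.77% of cells had a Ccn5 UMI, against 30.1% in tag 1. What share of the UMIs of a cell came from free RNA was not estimated. Serpinb9 was at 65.2 CPM in tag 1 against 17.2, 14.1 and 22.6 in tags 2 to 4, and 39.6 in free RNA. Lurap1l was at 35.7 CPM against 10.6, 20.1 and 6.10, and Lgalsl at 35.5 against 13.5, 17.3 and 10.8. Masp1 was the exception, since its 32.7 CPM in tag 1 was matched by 31.1 in tag 4, with 22.5 in tag 2 and 13.8 in tag 3. Each tag is 1 culture, so a difference between tags has no spread to be set against.

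**Figure D1:**
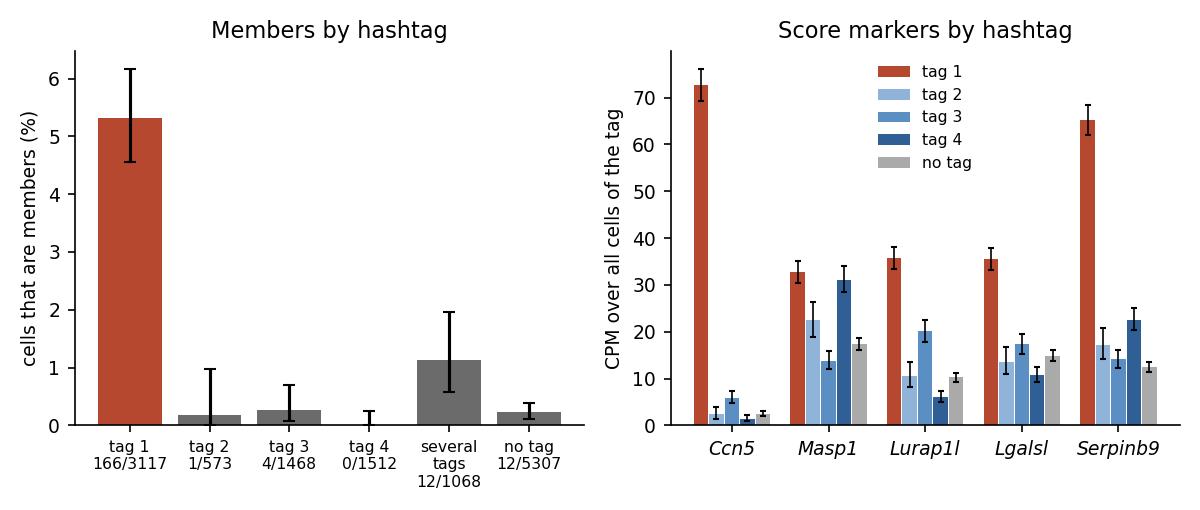
Left, share of the cells of each hashtag that are members (%), with members and cells under each bar and exact 95% intervals. Right, CPM of the 5 score markers over all cells of a tag, with exact Poisson 95% intervals; tag 1 holds 5.33% members against 0.272% or less in tags 2 to 4, and Masp1 is the 1 marker as high in tag 4 as in tag 1.

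The cells of tag 1 differ from the others in far more than the 5 genes, and so do the members. Ifit1, an interferon-induced RNA-binding protein, was at 797 CPM in tag 1 and at 29.4, 79.6 and 29.1 in tags 2 to 4. Vegfd, a lymphatic growth factor, was at 250.5 CPM in tag 1 against 19.1, 29.7 and 24.4. Spp1 (osteopontin) ran the other way, at 3384 CPM in tag 1 against 8101, 5775 and 9194. A contrast of members with all other cells is thus largely a contrast of tag 1 with the rest, and each result below is given over all cells and again within tag 1, where 166 members stand against 2951 cells.

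Members were not deeper than other cells. Their median was 6255 UMIs against 7962, and 6148 against 6825 within tag 1. Doublet calls were less frequent in members, at 13.3% against 23.6% over all cells and 9.64% (5.61 to 15.2) against 23.8% (22.3 to 25.4) within tag 1. The median mitochondrial share was 1.22% against 1.33%, and 1.2% against 1.07% within tag 1. Xist, the RNA of the inactive X chromosome in female cells, was at 37.7 CPM in members against 404 in other cells. Within tag 1 it was at 17.1 against 113 CPM, a ratio of 0.151 (0.0905 to 0.236), and was found in 7 of the 166 members. The Y-linked genes Ddx3y, Uty, Eif2s3y and Kdm5d were together at 177 CPM in members and 156 in other cells of tag 1. Members of tag 1 were therefore poorer in doublet calls and in Xist than the other cells of the tag. Values without cells that carried Xist are given below for the lists and several of the genes that stood highest. Over the whole of tag 1, values without doublet calls are given for the lists, Acta2 and Cnn1.

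The VSMC label was checked against its markers. Acta2 (smooth muscle actin) was found in 56.4% of members and 46.9% of other cells, and Tagln (transgelin) in 60.5% and 63.2%. Cnn1 was found in 9.23% of members. Myh11, the smooth muscle myosin that defines mature VSMCs, had 5 UMIs in all members together (3.77 CPM against 4.41 in other cells), which is below its 10.5 CPM in free RNA, and Des was at 0. Of the early contractile markers, Acta2 was above its level in free RNA in members (608 against 393 CPM) but not in other cells (336), whereas Tagln was below it in members (400.1 against 505 CPM) and above it in other cells (610). Cnn1 was at 39.9 CPM in members, 17.4 in other cells and 24.8 in free RNA. Immune and endothelial markers were scarce. Macrophage markers summed to 12.8 CPM (17 UMIs, led by Csf1r, with Ptprc, Lyz2, Adgre1, Tyrobp and C1qa at 0), lymphocyte markers to 1 UMI, and endothelial markers to 12.1 CPM (led by Egfl7, with Vwf, Cldn5 and Erg at 0). Fibroblast markers stood higher, at 2515 CPM in members against 950 in other cells, where the VSMC marker list was at 1677 and 1463 CPM. The fibroblast sum was mostly Ly6a, which was at 1964 CPM in tag 1 as a whole, and within tag 1 the list differed by a ratio of 1.06 (1.02 to 1.10) with Pi16 at 0. Pericyte markers were at 164 CPM in members, led by Pdgfrb with Abcc9 and Higd1b at 0, at a ratio of 1.86 over all cells and 1.16 (0.997 to 1.34) within tag 1. Epithelial markers were at 57.3 CPM, at a ratio of 0.880 and 0.746. Schwann and neural markers were at 227 CPM, led by Ncam1 with Sox10 at 0, at 0.761 and 0.712, and adipocyte and striated muscle markers at 258 CPM, led by Fabp4 with Adipoq, Plin1, Actn2, Myh6 and Ckm at 0, at 1.20 and 0.892. Their part in the results was not tested.

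The 5 genes were also read one at a time, by choosing cells with 4 of them and reading the fifth, which that choice had not used. The 5 were proposed together with earlier results of these data known, so these ratios describe the set and are no independent support that its genes go together. Over all cells every left-out marker was higher in the cells so chosen, most of all Ccn5, at 106 CPM against 18.5, a ratio of 5.74 (4.82 to 6.78). Serpinb9 followed at 4.66 (3.94 to 5.46), then Lurap1l at 3.64, Lgalsl at 2.55 and Masp1 at 1.87 (1.42 to 2.43). Within tag 1, where the shared tag no longer counts, the ratios were smaller. Serpinb9 was at 130 against 62.0 CPM, a ratio of 2.10 (1.75 to 2.50), Lurap1l at 1.90 (1.47 to 2.42), Ccn5 at 1.73 (1.45 to 2.05) and Lgalsl at 1.48 (1.11 to 1.93). For Masp1 the interval held 1, at 1.22 (0.884 to 1.65). Without cells that carried Xist, the 5 ratios lay between 1.25 and 1.96, in the same order. Every ratio was thus smaller within the tag than over all cells, and 4 of the 5 intervals there lay above 1.

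**Figure D2:**
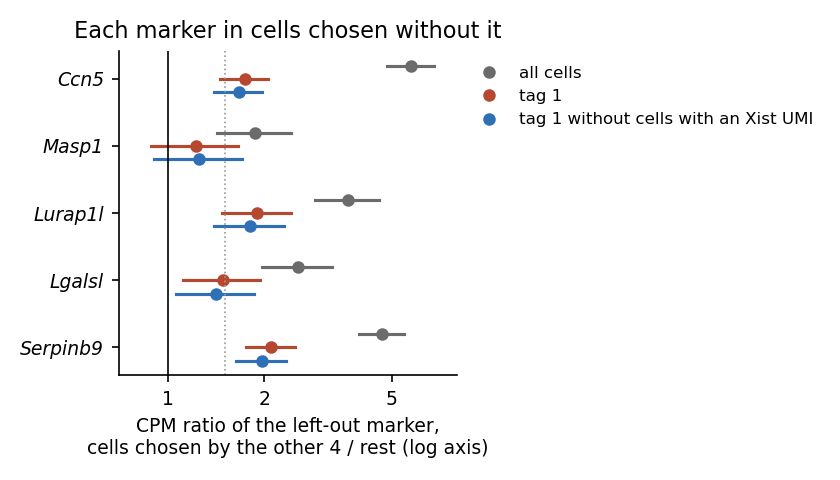
Ratio of CPM (log axis) of each marker between cells chosen by the other 4 markers and the rest, over all cells, within tag 1, and within tag 1 without cells with an Xist UMI; bars are exact 95% intervals and dotted lines mark 1.5-fold. Every ratio is nearer to 1 within tag 1, and the Masp1 interval there holds 1.

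Members were a loose set in the space of all variable genes. Of the 20 nearest neighbours of a member, 10.5% were members, where 1.49% of all cells are, and 46 members had none. Among tag 1 cells the share was 11.5% against 5.33%. Of the 5 genes, only Ccn5 and Serpinb9 were among the variable genes. Without them the share was 9.44% over all cells and 10.4% in tag 1. In a clustering of all cells into 13 groups, cluster 2 held 115 members (59.0%), cluster 4 held 39 and cluster 7 held 27, and no cluster held more than 5.92% members. Cluster 2 was led by Cxcl9 and Ifit3, cluster 7 by Cdkn3 and Psmb9, and cluster 4 by Npr3 and Vstm2a, with 77.9% of its cells called doublets. The cluster led by Cnn1 and Acta2, number 5, held 2 members.

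Interferon genes were higher in members over all cells, but this followed the tag. All 26 interferon genes with at least 1000 UMIs were at least 1.5-fold higher in members, where 7.27% of the 8874 genes compared were. Ifit1 was at 996 CPM in members against 218, a ratio of 4.58 (4.33 to 4.84). The ratio was 4.87 for Ifit3, 3.97 for Isg15 (a ubiquitin-like protein), 4.04 for the chemokine Ccl5, and 3.07 for Bst2, which tethers virus particles to the membrane. Over the list the sum was 8595 CPM against 2387, a ratio of 3.60 (3.53 to 3.67). Within tag 1 none of the 26 genes reached 1.5-fold, where 2.06% of all genes did. There the sum was 9295 against 7620 CPM, a ratio of 1.22 (1.20 to 1.24), and 25 of the 26 genes had a ratio above 1. Ifit1 was at 1083 against 782 CPM, a ratio of 1.38 (1.30 to 1.47), Ifit3 at 1.32, Isg15 at 1.27 and Bst2 at 1.14, and Slfn5 was the 1 gene below 1, at 0.961 (0.745 to 1.22). The median log2 ratio of the list was 1.84 over all cells and 0.28 within tag 1, against -0.07 and -0.03 for all genes. Without doublet calls the ratio within tag 1 was 1.08, and without cells with Xist 1.13. Ifit1 had a UMI in 95.2% of tag 1 members and 88.9% of the other cells of the tag, and after thinning to 5000 UMIs per cell, which left out 48 members and 699 others, in 92.4% and 85.1%.

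Genes of antigen presentation by MHC class I, many of which interferon induces, behaved alike. All 10 with at least 1000 UMIs were at least 1.5-fold higher over all cells, where 7.27% of all genes were. B2m was at 2.01 and H2-K1 at 3.25, and the list was at 2.42. Within tag 1 none was, which is near the 2.06% of all genes that were, and the list was at 1.12 (1.09 to 1.15).

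The ISRE core stood in the promoter windows of 10 of the 23 interferon genes with an entry, and in 1 of 20 contractile genes (Mylk). Isg15, whose window holds 3 overlapping matches, is shown for comparison with the markers (chr4:156200819-156201068, minus strand, first bases at 78, 72 and 66 before the start).
Isg15: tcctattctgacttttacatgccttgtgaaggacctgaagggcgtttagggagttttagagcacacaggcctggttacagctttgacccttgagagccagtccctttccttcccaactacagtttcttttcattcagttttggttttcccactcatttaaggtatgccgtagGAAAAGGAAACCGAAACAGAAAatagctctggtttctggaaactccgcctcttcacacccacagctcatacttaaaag
Lurap1l and Serpinb9 share this core with Isg15, as printed above, while Lgalsl does not.

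The summed contractile list showed the opposite arrangement, with a ratio nearer 1 over all cells than within tag 1. Its single genes passed 1.5-fold in both directions over all cells, and Acta2 was higher by about the same ratio in both comparisons. Over all cells the list was at 6665 CPM in members and 6211 in the rest, a ratio of 1.07 (1.05 to 1.10). Of 14 genes with at least 1000 UMIs, 6 were at least 1.5-fold higher and 2 at least 1.5-fold lower, where 7.27% and 12.9% of all genes were. Acta2 was at 608 CPM against 336 (1.81, 1.68 to 1.94), whereas Tagln was at 400.1 against 610 (0.656, 0.601 to 0.714). Also at least 1.5-fold higher were Cnn1 (calponin, 2.30, or 1.15 when Lurap1l was left out of the score), Lmod1 (leiomodin, which nucleates actin filaments), Csrp1 and Myl9 (the regulatory light chain of smooth muscle myosin), and the second lower gene was Smtn. The sign of the list depends on the choice of members: it was at 0.994 for the highest 3% of cells, 0.940 when Lurap1l was left out of the score, and 1.21 under a filter on mitochondrial transcripts.

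Within tag 1 the list was at 6679 against 5572 CPM, a ratio of 1.20 (1.17 to 1.23), and 6 of 14 genes were at least 1.5-fold higher, with none lower, where 2.06% and 7.96% of all genes were. Cnn1 was at 47.6 against 15 CPM (3.17, 2.33 to 4.25), and at 1.49 (0.968 to 2.20) when Lurap1l was left out of the score. Lmod1 was at 35.9 against 17.4 (2.06, 1.45 to 2.86), Acta2 at 653 against 358 (1.82, 1.69 to 1.97), Myl9 at 95.2 against 54.3 (1.75, 1.42 to 2.14) and Csrp1 at 1.73. These are subunits and regulators of the contractile filaments. Lower ratios were seen for Tpm1 (a tropomyosin, 1.24), Tpm2 (1.22), Myl6 (1.11), Cald1 (1.06) and Tagln (0.969, 0.878 to 1.07). The median log2 ratio of the list was 0.44. Without cells with an Xist UMI, which left 159 members and 2570 others, the list was at 1.17 (1.15 to 1.20), Acta2 at 1.68, Cnn1 at 3.89, Lmod1 at 1.78, Myl9 at 1.69 and Csrp1 at 1.64. Without doublet calls, as given below, the list, Acta2 and Cnn1 were nearer 1, and Acta2 was under 1.5-fold. The list was also nearer 1 when Lurap1l was left out of the score. Of the 20 listed genes, Des and Pln were at 0 in these members, and Mylk, the kinase of the myosin light chain, was at 18.9 against 5.65 CPM from 21 UMIs.

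**Figure D3:**
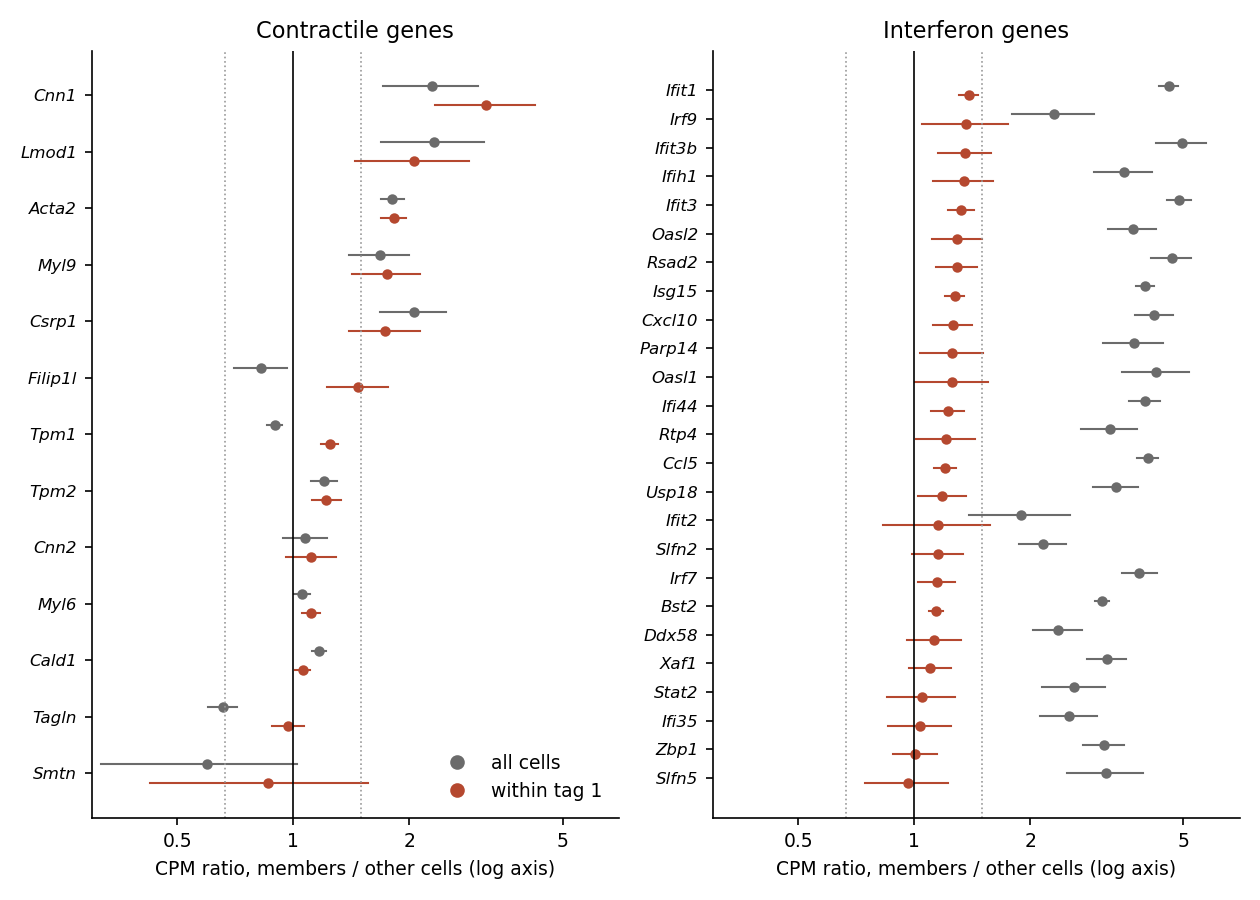
Ratio of CPM (log axis) of members to other cells for the contractile genes (left) and interferon genes (right) with at least 1000 UMIs, over all cells (grey) and within tag 1 (red), with exact 95% intervals; dotted lines mark 1.5-fold. The interferon genes shown move from past 1.5 to between 0.961 and 1.38, while Cnn1, Lmod1, Acta2, Myl9 and Csrp1 stay past 1.5.

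The UMIs behind these ratios were concentrated in few cells, among members and others alike. Acta2 had 727 UMIs in the 166 members, with 68, 66 and 61 in the highest 3 cells, and the highest 10 members held 57.5% of them. Cnn1 had 53 UMIs in 18 members, of which the highest 3 held 62.3%. Acta2 was found in 54.8% of members and 48.5% of the other cells of the tag, and after thinning in 52.5% (43.1 to 61.8) and 41.7% (39.6 to 43.8). When the same share of highest cells was taken out of both sides, the Acta2 ratio was 2.01 and the Cnn1 ratio 3.50. The median member held 111 CPM of Acta2 and the upper quartile 635, against 0 and 280 in the other cells.

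Set against the other cells of their own cluster, members were higher in contractile genes in 2 of the 3 clusters. In cluster 2, with 104 members and 1629 other tag 1 cells at nearly the same depth (medians of 6043 and 5942 UMIs), the contractile list was at 1.03 (0.996 to 1.06), Acta2 at 304 against 321 CPM (0.946, 0.817 to 1.09), Myl9 at 1.06, Lmod1 at 1.04 and Tagln at 0.795 (0.678 to 0.928). Cnn1 was at 1.55 (0.723 to 2.98) from 10 UMIs and Csrp1 at 1.32 (0.946 to 1.79), with intervals that held 1. The summed list of these 104 of the 166 members was thus within counting error of the cells around them. In cluster 7, with 26 members and 509 others (medians of 7724 and 7661 UMIs), the list was at 1.59 (1.51 to 1.67), Acta2 at 3.33 (2.89 to 3.84), Myl9 at 3.47, Lmod1 at 3.77 and Cnn1 at 18.0 (10.9 to 29.6) from 34 against 36 UMIs. The 34 Cnn1 UMIs came from 5 of the 26 members, so this ratio rests on few cells. Without doublet calls, with 21 members and 421 others, Acta2 was at 2.89 (2.39 to 3.48) and the list at 1.41, Lmod1 at 2.84 and Tagln at 1.12 (0.839 to 1.46), and 19 Cnn1 UMIs came from 3 of the 21 members. Myl9 was then at 2.02 (1.05 to 3.58) from 13 UMIs in members. In cluster 4, with 34 members and 447 others, the list was at 1.49 and Acta2 at 3.10 (2.74 to 3.51), but 79.4% of the others and 23.5% of the members were called doublets, and their median depth was 10727 against 5289 UMIs. Without these calls, 26 members stood against 92 others, and Acta2 was at 0.938 (0.795 to 1.10) and the list at 0.919 (0.864 to 0.977). Without doublet calls, members thus stood above the other cells of their own cluster in cluster 7 and not in cluster 4. Cluster 4 was then itself rich in Acta2, at 1304 CPM in members and 1391 in others, and its 26 members held 185 Acta2 UMIs, more than the 130 of the 21 members of cluster 7 (797 CPM). Over the whole of tag 1 without doublet calls, Acta2 was at 1.41 (1.28 to 1.55) and Cnn1 at 2.12. How much of these ratios came from cluster 7 or from the share of members in cluster 4 was not estimated. In cluster 4 without doublet calls, Cnn1 was at 0.304 (0.0800 to 0.825) from 4 UMIs in members.

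The interferon list followed the clusters in another way. It was at 1.05 (1.03 to 1.08) in cluster 2 and 1.06 (1.01 to 1.12) in cluster 7, and at 1.5 (1.42 to 1.58) in cluster 4, where it was at 0.919 without doublet calls.

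**Figure D4:**
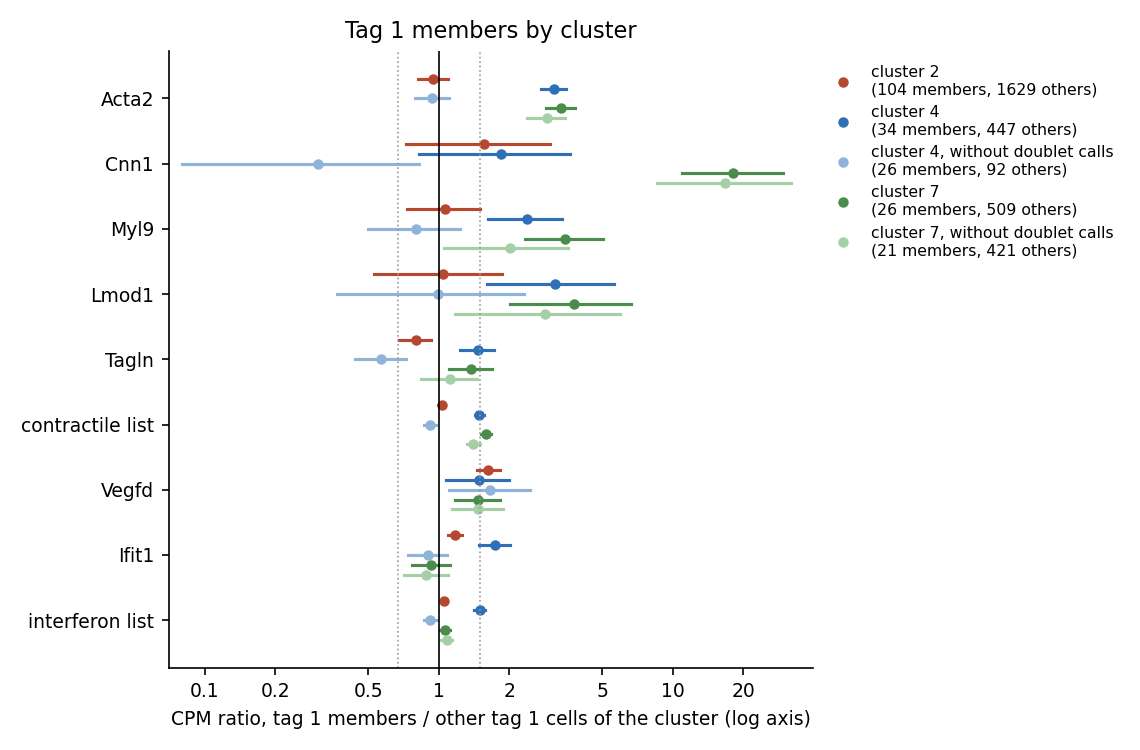
Ratio of CPM (log axis) of tag 1 members to other tag 1 cells within clusters 2, 4 and 7, and within clusters 4 and 7 without doublet calls, for contractile genes, Vegfd, Ifit1 and the summed lists; bars are exact 95% intervals. Acta2 is near 1 in cluster 2 and at about 3 in clusters 4 and 7, and it returns to 0.938 in cluster 4 without doublet calls while it stays at 2.89 in cluster 7.

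The 5 markers did not move alike with the contractile genes. In tag 1, the 620 cells with a Lurap1l UMI were compared with those without one, and Acta2 was at a ratio of 1.76 (1.69 to 1.84), Cnn1 at 3.29 (2.69 to 4.03), Tagln at 1.36 and the contractile list at 1.21 (1.19 to 1.22). Without doublet calls Acta2 was at 1.75 and the list at 1.20, and in cluster 2 alone Acta2 was at 1.20 (1.11 to 1.30). For the 939 cells with Ccn5 the contractile list was at 1.04, and Acta2 at 1.28 (1.22 to 1.33), or 1.10 without doublet calls. Acta2 was at 1.16 for Lgalsl, 1.11 for Masp1 and 1.05 for Serpinb9. In cluster 2 it was at 0.871 (0.801 to 0.947) for Lgalsl, 1.09 for Masp1 and 0.886 (0.825 to 0.951) for Serpinb9, and without doublet calls at 1.16, 1.19 and 0.963 (0.912 to 1.02). Over the whole tag, Lurap1l was hence the marker with which the contractile genes stood highest. In cluster 2 this held for the summed list (1.14, against 1.05 with Ccn5) but not for Acta2, which was at 1.27 (1.18 to 1.36) with Ccn5. When Lurap1l was left out of the score, the contractile list within tag 1 was at 1.04. The interferon list lay within 10% of 1 for all 5 markers, from 1.10 for Ccn5 and 1.05 for Serpinb9 through 0.972 for Lurap1l and 0.925 for Lgalsl to 0.915 for Masp1. Cells with a marker UMI had medians of 7068 to 7861 UMIs, against 6475 to 6647 for those without.

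The CArG box was found in 4 of 20 contractile promoter windows, those of Cnn2, Filip1l, Myl6 and Myl9, in 0 of 23 interferon windows and, of the 3 markers with an entry, in Lurap1l. Myl9 is shown beside Lurap1l because both held it (chr2:156775214-156775419, plus strand, 161 bases before the start). A match is a description of the letters and not of binding.
Myl9: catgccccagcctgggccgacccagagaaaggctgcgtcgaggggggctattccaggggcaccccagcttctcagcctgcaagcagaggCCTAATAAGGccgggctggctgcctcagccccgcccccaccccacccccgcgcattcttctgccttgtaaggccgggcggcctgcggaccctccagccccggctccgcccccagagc

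Of all genes, Vegfd and a group of interferon genes stood highest in members over all cells, and a mixed group within tag 1. Over all cells 645 genes were at least 1.5-fold higher and 1149 at least 1.5-fold lower. By the bound of the interval nearest 1, the highest were Vegfd (397 against 74.9 CPM, 5.31), Cxcl9 (6.26), Iigp1, Ifit3, Ifit1, Sfrp1 (a secreted inhibitor of Wnt signalling, 4.63), Ifit3b, Rsad2, Adamts5 (an aggrecanase, 4.41), Phf11d, F830016B08Rik and Ccl5. The lowest were Xist (0.0932), Lingo2 (0.124), Slc22a23, Mcpt8 (0.179), Galnt13, Myct1, Klra4, Gm45716, Tsix, Nxph1, Igfbp5 and Areg. Igfbp5, an IGF-binding protein, had 0 UMIs in members and 1087 in other cells. Tsix overlaps Xist on the other strand.

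Within tag 1, 183 genes were at least 1.5-fold higher and 706 lower, and the median gene had 37 UMIs in members, so the folds of low genes are imprecise. After Cnn1, the highest by the same order were Mmp16 (a membrane matrix metalloproteinase, 79.0 against 29.0 CPM, 2.72, 2.15 to 3.41), Dio2 (which activates thyroid hormone, 2.70), Fmo2 (2.13), Npr3 (the clearance receptor of natriuretic peptides, 3.01 from 22 UMIs), Cavin2 (a caveolar coat protein, 1283 against 682 CPM, 1.88, 1.78 to 1.99), Acta2, Itga4 (3.12 from 15 UMIs), Pappa (a protease of IGF-binding proteins, 1.92), Vegfd (428 against 242 CPM, 1.77, 1.61 to 1.95), Sfrp1 (543 against 315 CPM, 1.72) and Dpysl3 (1.88). Unlike Acta2, several of these were also higher among the cells of cluster 2. There Npr3 was at 4.23 (2.32 to 7.33), Mmp16 at 3.56 (2.72 to 4.60), Fmo2 (a monooxygenase) at 1.96, Cavin2 at 1.90 (1.77 to 2.04), Vegfd at 1.63 (1.45 to 1.82) and Sfrp1 at 1.56. The Npr3 ratio there rests on 17 UMIs in 10 members. Fmo2 had a UMI in a similar share of cells on both sides there, 26.0% of members and 24.4% of others. In cluster 7 Vegfd was at 1.47 and Cavin2 at 1.37 (1.18 to 1.57), while Sfrp1 was at 0.782 (0.591 to 1.02), Mmp16 at 0.597 (2 UMIs in members and 64 in others) and Npr3 at 1.41 (2 and 27 UMIs). In cluster 4 without doublet calls Sfrp1 was at 1.76 (1.38 to 2.24), Vegfd at 1.66 and Cavin2 at 1.42, and Npr3 had 0 UMIs in members and 5 in others. Cavin2 and Vegfd were spread over many cells, with a UMI in 91.0% and 80.1% of members and 83.0% and 68.6% of other cells of the tag. Without cells with an Xist UMI, Mmp16 was at 2.98 within tag 1, Npr3 at 2.93, Fmo2 at 2.07, Cavin2 at 1.79, Vegfd at 1.66 and Sfrp1 at 1.64. For Dio2, 54.5% of the UMIs were in 3 members, and without the highest cells on both sides its ratio was 1.97. Vegfd stood highest with Ccn5, at a ratio of 1.48 (1.41 to 1.56) between tag 1 cells with and without Ccn5, and at 1.36 in cluster 2, where Lurap1l was close at 1.35.

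The lowest genes within tag 1 were Adam2, Xist, Lingo2 (0.229), Tmem267 (0.140), Klra4 (0.211), the neutrophil chemokine Cxcl2 (0.309), Pole2, Mcpt8 (0.313), AC160336.1, Frmd4b, Snhg1 (0.404) and Glce. Adam2 had 0 UMIs in members against 516 in the other cells of the tag, where they came from 107 cells. A small cluster led by Adam2 and Tmem267, number 10, held 183 cells, 138 of them of tag 1, and no member.

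The families of the markers gave no common pattern, and each family is summed here without the marker that chose the members. Of the CCN genes, Ccn1 was at 1.16 and Ccn2 at 1.25 within tag 1, and Ccn4 at 1.02, and without Ccn5 the family was at 1.19 over all cells and 1.20 (1.10 to 1.30) within tag 1. Among serpins of clade B, Serpinb1a was at 1.98 (1.45 to 2.64) and Serpinb9b at 1.95 (1.58 to 2.38), while Serpinb2 was at 190 against 506 CPM over all cells (0.376) and at 0.522 within tag 1. Without Serpinb9 the list was at 0.896 (0.843 to 0.951) over all cells and 0.960 (0.897 to 1.03) within tag 1. Whether reads were split between Serpinb9 and its relative Serpinb9b was not examined. Galectins other than Lgalsl stood within 1.32-fold in tag 1 (Lgals3 at 1.32, Lgals1 at 1.0), and together they were at 1.18 over all cells and 1.04 within the tag. In the lectin and complement list, no gene with at least 1000 UMIs besides Masp1 was past 1.5-fold within tag 1. Of all genes, 2.06% were higher and 7.96% lower there, so this count is near those shares. Cfb was at 1.37 and Serping1 at 1.18, and the list without Masp1 was at 1.68 over all cells and 1.20 (1.13 to 1.28) within the tag.

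Genes of matrix turnover differed gene by gene. Matrix genes summed to 10778 against 7744 CPM over all cells (1.39). Of 19, 9 were at least 1.5-fold higher, among them Col3a1 (3.16) and Lox (2.18), where 7.27% of all genes were. In tag 1 the sum was at a ratio of 1.08 (1.06 to 1.10), and Col8a1 alone passed 1.5-fold (1.56, 1.39 to 1.75), where 2.06% of all genes were higher. Proteases and their inhibitors summed to 1.17 and 1.02. Within tag 1 the inhibitor Timp3 was at 1.75 (1.57 to 1.94), the proteases Adamts1 at 1.68 and Mmp3 at 1.51, and the protease inhibitor Serpine2 at 0.539 (0.404 to 0.707). Targets of TGF-beta were at 1.5 and 1.17, with 3 of 11 at least 1.5-fold higher over all cells and none in the tag, where 2.06% of all genes were. Genes of the Wnt pathway were at 3.21 and 1.68, a sum led by Sfrp1, with Dkk3 at 1.81 (1.42 to 2.30) and Dkk2 at 2.29 in the tag. Osteochondrogenic genes were lower, at 0.335 over all cells and 0.626 (0.602 to 0.652) within tag 1, and this was nearly all Spp1, at 0.618 there. Transcription regulators of the contractile state were at 1.07 and 1.06, with Klf4 at 1.33 (1.15 to 1.53) in the tag and Myocd, the main coactivator of contractile genes, at 0 UMIs in members against 3.0 CPM in the others, where the ratio interval reached 1.13.

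The score was also applied within each tag by taking the highest 5% of its cells, which gave 155 cells in tag 1, 28 in tag 2, 73 in tag 3, 75 in tag 4 and 265 without a tag. All 155 cells of tag 1 were already members, so the values of tag 1 here largely repeat those above. The lowest score kept was 3.53 in tag 1 and between 1.47 and 1.67 in the others, so outside tag 1 these sets reach down to far lower scores. The markers behind the sets also differed. Lurap1l was at 154, 77.0, 118 and 19.7 CPM in the highest cells of tags 1 to 4. Ccn5 was at 332, 22.0, 56.1 and 4.22 CPM there, and Masp1 at 126, 180, 63.7 and 156. How this make-up bears on the ratios was not tested. The contractile list was above 1 in tag 1, at 1.21 (1.18 to 1.23), and in tag 3, at 1.13 (1.10 to 1.16). It was at 0.977 (0.933 to 1.02) in tag 2, below 1 in tag 4, at 0.861 (0.831 to 0.892), and at 1.12 in cells without a tag. Acta2 was at 1.85, 0.967, 1.64 and 0.515 in tags 1 to 4. In tag 2, 1 cell held 38.2% of its 144 UMIs, and without that cell the ratio was 0.614 (0.492 to 0.758). The point values of the cultures thus lay on both sides of 1, and the difference between cultures was not tested. The interferon list was at 1.24, 2.93, 1.01 and 1.07 in tags 1 to 4 and at 1.83 without a tag. The value of tag 2 leans on cells that carried most of their hashtag UMIs from another tag. There were 6 such cells among its 28, 4 of them with most from tag 1, and they held 383 of the 514 UMIs. The richest of them is the member of that tag. Without such cells on either side, the interferon list in tag 2 was at 1.02 (0.854 to 1.22), the contractile list at 1.03 (0.983 to 1.09) and Acta2 at 1.14 (0.951 to 1.35). In the other tags the same step left the contractile list at 1.20, 1.13 and 0.856 and the interferon list at 1.24, 1.01 and 1.09.

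**Figure D5:**
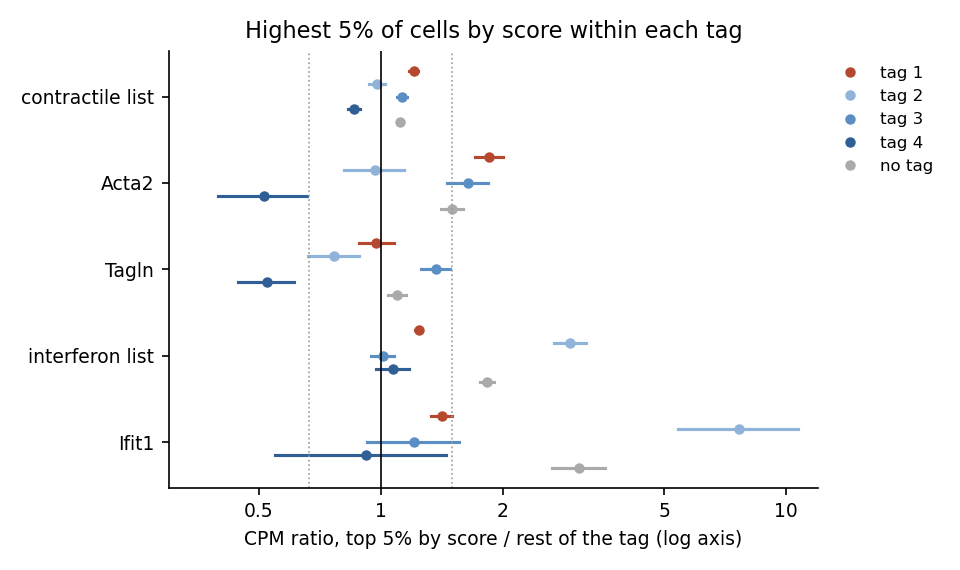
Ratio of CPM (log axis) of the highest 5% of cells by score to the rest of the same tag, for the contractile list, Acta2, Tagln, the interferon list and Ifit1, with exact 95% intervals. Acta2 lies above 1 in tags 1 and 3 and below 1 in tag 4, and the interferon list lies highest in tag 2, where it is at 1.02 without cells led by another tag.

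Members were compared last with the cells that score highest for each list. Of the 195 cells with the highest contractile score, 5 were members (2.56%, 0.838 to 5.88), and of the 195 with the highest interferon score, 16 were (8.21%, 4.76 to 13.0), where members are 1.49% of all cells. Within tag 1, with 166 cells on each side, the overlap was 16 cells for the contractile score (9.64%, 5.61 to 15.2) and 14 for the interferon score (8.43%, 4.69 to 13.7), where members are 5.33% of the cells. Most members were thus in neither set of highest cells.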

How the data were processed

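Hashed VSMCs of 4 cultures were sequenced as 1 pooled library (Chromium 3′ v3.1, gene expression and hashtags). The authors deposited raw UMI counts made with Cell Ranger 4, per the file headers, for 32285 genes and 4 hashtags over 2472397 barcodes without a cell filter; no genome build is named in the sources used here. Cells were barcodes with at least 200 genes and 2218 UMIs (the 99th percentile of UMIs over the deepest 10000, over 10). Tags were assigned with HTODemux at the 0.99 quantile and cells clustered in Seurat 5.3.0 (R 4.3.3; 2000 variable genes, 30 components, resolution 0.8). Scrublet in scanpy 1.11.5 called 3058 doublets (23.4%) at an expected rate of 0.1; they were kept unless stated. Ratios of CPM carry exact binomial intervals and shares Clopper-Pearson intervals (scipy 1.17.1), all for counting error only. The ratio was tested on simulated counts that had no spread between cells. Its intervals therefore do not cover the gathering of UMIs in few cells. Genes needed 1000 UMIs over all cells to be compared, which left 8874 besides the markers, and were called higher or lower at 1.5-fold without a test.

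The members, lists and naming rule were chosen with earlier results of these data known. Named were the markers, contractile and interferon genes, the 12 highest and 12 lowest genes by the interval bound nearest 1, the most abundant and the 1.5-fold genes of the other lists, and Xist and Y-linked genes. Comparisons within tag 1, by cluster, by single marker and within each tag were added after the data were seen. Coordinates came from GENCODE vM21 (GRCm38) by gene identifier. Single results of a few listed genes are not reported here. Some listed genes, and the microarray, imaging and force data of the study, were not analysed here.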

Additional observations from a re-analysis of the deposited data

Results flagged for a closer look

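Among the contractile and interferon genes and lists compared between the highest 5% of cells by score and the rest of each tag (48 in all), 2 genes lay at least 1.5-fold on opposite sides in different cultures, with intervals that did not hold 1. The difference between cultures was not tested, since each is 1 culture. The sets were also made up of different markers, with Lurap1l at 154 CPM in tag 1, 118 in tag 3 and 19.7 in tag 4. The part of this in the ratios was not tested. Acta2 was at 1.85 in tag 1 and 1.64 in tag 3, but at 0.515 in tag 4. Without the cell richest in Acta2 in each tag, these values were 1.68, 1.48 and 0.345, so that of tag 3 was then under 1.5-fold. In tag 2 the same step took Acta2 from 0.967 to 0.614 (0.492 to 0.758), whereas leaving out cells with most hashtag UMIs from another tag took it to 1.14 (0.951 to 1.35). Ccl5 was at 14.6 in tag 2 and 0.233 in tag 4, where it had 3 UMIs. In tag 2, 1 cell held 69 of its 73 UMIs and had most hashtag UMIs from tag 1, and without that cell the ratio was 0.833 (0.223 to 2.19).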

How the results depend on the processing

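One library without replicate cultures allows no left-out replicate and no test. The counting intervals of the ratios cover neither the spread between cells nor that between cultures. No paired analysis was possible because the samples are the gene and hashtag parts of 1 pooled library. Of 366 alternative values, 203 were counted as unchanged and the others were not. A ratio or share was unchanged if it stayed within the counting interval of the reported value. Counts of genes carry no such interval, and were judged by the fold that was used to call genes higher or lower. The causes of the changes were not tested. In all, 6 ratios fell on the other side of 1 from the reported value. They were the contractile list over all cells for the highest 3% and without Lurap1l, Acta2 in cluster 2 of tag 1, and Tagln within each tag (1.05), on thinned cells in tag 1 (1.05) and in tag 1 without Ccn5 (1.05). Of the 6 intervals, 1 was clear of 1, that without Lurap1l. Alternatives within tag 1 were chosen after seeing the data.

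Over all cells, the ratio of the contractile list (1.07) and of the interferon list (3.60) was 1.11 and 3.71 for the highest 1% of cells, 1.02 and 2.92 with the score on thinned cells, 1.04 and 3.77 in cells of at least 5000 UMIs, 1.01 and 3.82 without doublet calls, 1.21 and 3.86 with the mitochondrial filter, 1.16 and 2.73 in cells with 1 tag, 1.11 and 1.36 with members chosen within each tag, 1.17 and 1.29 with others weighted to the tags of the members, 1.03 and 3.86 without the log, and 1.01 and 3.84 without Masp1 in the score. Without Lurap1l it was 0.940 and 3.82. The contractile list was at 0.994 for the highest 3% and 1.04 without Lgalsl. The interferon list was at 3.05 without Ccn5 and 3.21 as a mean of cells. The 645 higher and 1149 lower genes became 1092 and 2003 at 300 UMIs, 349 and 477 at 3000 UMIs, and 240 and 399 at 2-fold; lower genes were 753 on thinned cells and 692 within each tag. Tag 1 held 77.4% of members on thinned cells and also without Ccn5, 90.8% without Masp1 and 98.0% among cells with 1 tag. Member neighbours were 9.44% without Ccn5 and Serpinb9 among the variable genes and 9.23% with 15 components.

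Within tag 1, the contractile list (1.20) and the interferon list (1.22) were at 1.13 and 1.08 without doublet calls, 1.17 and 1.17 on thinned cells, and 1.03 and 1.05 in cluster 2. The contractile list was at 1.09 without Masp1, 1.04 without Lurap1l and 1.16 without Lgalsl. The interferon list was at 1.13 without Xist cells and also without Ccn5, 1.25 at 5000 UMIs and 1.28 without Lurap1l. The 183 higher genes were 291 without doublet calls and 419 in cluster 2, where fewer members were counted. Acta2 turned from 1.82 to 0.946 in cluster 2.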

Other observations

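Cell cycle genes were somewhat lower in members, at 0.651 (0.597 to 0.709) over all cells and 0.805 (0.730 to 0.887) within tag 1 for S phase, and at 0.797 and 0.832 for G2/M. Within tag 1, 5 of 15 S phase genes and 3 of 16 G2/M genes were at least 1.5-fold lower, where 7.96% of all genes were. By cluster within tag 1, the S phase list was at 0.987 (0.829 to 1.17) in cluster 2, 1.15 (0.998 to 1.32) in cluster 7 and 0.558 (0.424 to 0.720) in cluster 4, where it was at 0.963 (0.658 to 1.38) without doublet calls. The G2/M list was at 0.787 (0.634 to 0.966) in cluster 2, 1.07 (0.993 to 1.15) in cluster 7, the cluster led by Cdkn3, and 0.400 in cluster 4, where it was at 1.37 (0.851 to 2.14) without doublet calls. Genes of cell cycle arrest and senescence were at 0.855 and 0.897, with Cdkn1a at 0.852 (0.789 to 0.920) and Ccnd1 at 0.759 within the tag. Immediate early genes were at 1.07 and 1.13, with Fosb past 1.5-fold (1.53, 1.23 to 1.87).

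Inflammatory genes were at 1.36 and 1.19, led by Ccl2 at 1.20 and Ccl7 at 1.21 within tag 1, while Lif was at 0.379 (0.172 to 0.725), Icam1 at 0.459 and Csf3 at 0.578 (0.247 to 1.15). Genes of mechanosensing and YAP were at 1.15 and 1.13, with Ankrd1 at 1.48 in the tag. Of 15, 2 were at least 1.5-fold higher over all cells and none in the tag, where 7.27% and 2.06% of all genes were. Piezo1, the channel of the study, was at 73.1 CPM in members and 86.2 in other cells, and at 0.922 (0.721 to 1.16) within tag 1. Calcium and mechanosensitive channels together were at 0.916 and 1.05. Genes of the NRF2 response were at 0.883 and 0.911, of the unfolded protein response at 1.29 and 1.12, of glycolysis at 1.18 and 1.07, and of cholesterol synthesis at 1.05 and 1.06 (0.986 to 1.14).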
